A study of Homo sapiens with 16 samples.

Results

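VPS genes and sorting nexin (SNX) genes were followed in cytoplasmic RNA of a human osteosarcoma line. The members were the protein-coding genes of GENCODE release 44 whose symbol is VPS with a number and an optional A to D or L, or SNX with a number. This rule uses names alone and took 64 of the 60107 genes in the counts, 34 VPS and 30 SNX.

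VPS genes were named from yeast mutants that failed to sort proteins to the vacuole, and most encode subunits of complexes that act on endosomes. ESCRT complexes bend the endosomal membrane inward around ubiquitinated receptors bound for the lysosome, retromer and retriever carry other receptors back to the cell surface or the Golgi, and HOPS, CORVET and GARP tether vesicles before fusion. Sorting nexins share a PX domain that binds phosphoinositides, and those with a BAR domain also bend membranes into recycling tubules. The symbol rule also takes VPS72, a subunit of chromatin remodelling complexes with no known place on endosomes.

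The transgene line is 1 clone of U2OS-TR cells, which carry the tetracycline repressor, and it expresses ΔN-RNMT, a cytoplasmic and catalytically inactive form of the cap methyltransferase, from a tetracycline-regulated promoter. Its 5 Control libraries came from uninduced cells and its 5 Induced libraries from cells given 1 μg/ml doxycycline 48 h after plating and collected 24 h later. The parental line, U2OS-TR without the transgene, gave 3 No Dox and 3 With Dox libraries with the same times. The parental libraries were sequenced at another facility, so levels were not compared between the lines, and the drug is shared by Induced and With Dox.

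Libraries of the transgene line held 12527183 to 23251834 gene counts, and those of the parental line 1473286 to 3214808. RNMT, from which the transgene was made, had 66.0, 55.5, 62.6, 74.4 and 112 scaled CPM (tag counts scaled to a common library size) in Control 1 to 5 and 278, 359.7, 265, 457 and 367 in Induced 1 to 5. Every Induced library was above every Control library, as the labels require, also Control 5 and Induced 2, which lay between the groups for most members below. Of 5 markers of bone-derived tumour cells, SPARC, VIM, COL1A1 and RUNX2 averaged 204, 165, 72.5 and 7.68 CPM in Control, and COL1A2 had 2 counts over the 10 libraries. Of 5 markers of other cell types, the epithelial genes KRT8 and EPCAM were present at 99.5 and 7.84 CPM, while CDH1, PTPRC of blood cells and HBB had too few counts to be tested. RUNX2 and VIM were called higher in Induced, 2.24-fold and 2.72-fold, and KRT8 was called lower, 1.32-fold (adjusted P = 0.0175, 0.0182 and 0.0424, edgeR with BH), and their part in the members' values was not tested. Members took 0.235% ± 0.00686 of gene counts in Control (SD, n = 5) and 0.253% ± 0.00944 in Induced (SD, n = 5).

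Of the 64 members, 59 had enough counts to be tested in the transgene line, 33 VPS and 26 SNX. With edgeR and Benjamini-Hochberg (BH) adjustment over all 13038 genes tested, 17 members were lower in Induced and 13 were higher at an adjusted P below 0.05. Over all genes tested, 19.8% were called lower and 20.0% higher. Among VPS genes 12 were lower and 5 higher, and among SNX genes 5 were lower and 8 higher. The shares were 36.4% lower and 15.2% higher for VPS and 19.2% and 30.8% for SNX, and the difference between the families was not tested. The median log2 fold change was −0.02 for VPS, 0.20 for SNX and 0.04 for all genes tested. Where libraries were scaled by total counts alone, the median of all genes moved to 0.28, and 20 of the 30 calls remained. In that fit VPS had 5 members lower and 11 higher, and SNX had 2 lower and 12 higher. Of all genes it called 10.8% lower and 30.8% higher. In these bulk samples less RNA in every cell and fewer cells with the RNA cannot be told apart. All changes below are relative to the TMM reference (trimmed mean of M values).

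**Figure D1:**
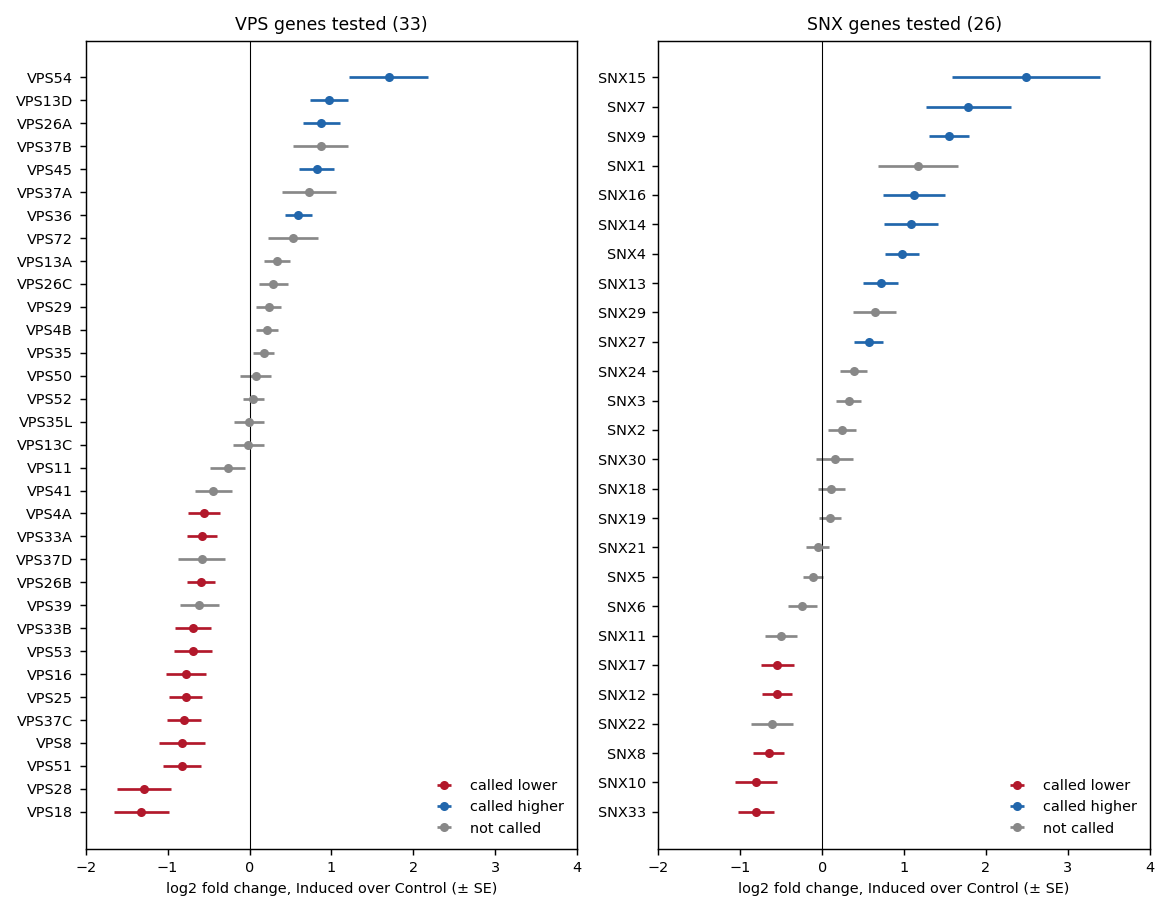
Log2 fold change of Induced over Control (x axis) with its SE for the 33 VPS and 26 SNX genes tested, ordered by size, where colour marks calls at an adjusted P below 0.05. VPS members run from −1.32 (VPS18) to 1.70 (VPS54) and SNX members from −0.81 (SNX33) to 2.49 (SNX15, which ran from 1.91 to 4.12 with 1 library left out).

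The 5 members that were not tested were VPS13B, SNX20, SNX25, SNX31 and SNX32. SNX20 and SNX32 had 0 counts in all 10 libraries of the transgene line, and SNX31 had 1 count. VPS13B had 158 counts and SNX25 had 180 over these libraries. Of the 64 members, 35 overlap a gene on the opposite strand, and whether the counting used strand is not given in the sources used here.

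HOPS and CORVET, the tethers of late and early endosomes, had 7 subunits with VPS names, of which 4 were called lower and none higher. The shares over all genes tested, 19.8% lower and 20.0% higher, also stand behind the counts of this and the other small groups below, none of which was tested as a group. VPS18, a core subunit of both complexes on chromosome 15 (40894450 to 40903975, GRCh38), had 58.3, 56.6, 109, 46.3 and 25.4 CPM in Control 1 to 5 and 22.5, 34.2, 24.0, 22.1 and 15.3 in Induced 1 to 5. Control 3 was the highest, and apart from Control 5, which fell below Induced 2, the Control libraries were above all Induced ones. Its log2 fold change was −1.32 ± 0.34 (SE, adjusted P = 0.0181, edgeR with BH), a fall of 2.50-fold. VPS33A, the Sec1/Munc18 subunit that guides SNARE assembly, had 89.5, 86.1, 91.0, 89.1 and 68.2 CPM in Control and 54.6, 74.4, 57.7, 59.8 and 37.5 in Induced. Again Control 5 alone crossed into the Induced range, and the log2 fold change was −0.58 ± 0.18 (SE, adjusted P = 0.0291, edgeR with BH).

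VPS8, the Rab5-binding subunit of CORVET, and VPS16, a core subunit, were called lower as well, with log2 fold changes of −0.82 ± 0.29 and −0.78 ± 0.24 (SE, adjusted P = 0.0400 and 0.0289, edgeR with BH). VPS39, VPS41 and VPS11 did not pass, at −0.61 ± 0.24, −0.44 ± 0.23 and −0.27 ± 0.21 (SE). TGFBRAP1, listed with the tethers but outside the VPS names, was at −0.05 ± 0.12 (SE) and was not called. Among the 4 called subunits only VPS18 was also called with total counts alone, and VPS16 was not called with offsets for GC content. VPS18 was called in all 10 fits with 1 library left out, VPS33A in 4, VPS16 in 3 and VPS8 in 2. The estimates of the 7 VPS subunits stayed below 0 with total counts and with GC offsets, and VPS41 was at 0.03 with 1 surrogate variable.

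The promoters of this group were examined for CACGTG, the core of the E-box that TFEB and related factors bind at many lysosomal genes. RefSeq promoters (GRCh38.p14, 250 bases before to 50 after the start) were given for 47 members, and 8 of them held the letters, which read the same on both strands. This is 17.0%, against 10.9% of 15843 protein-coding genes. VPS members accounted for 7 of 24 and SNX members for 1 of 23, and HOPS and CORVET for 3 of the 5 with a promoter (VPS8, VPS11 and VPS16). Bases upstream of VPS11 and VPS16 are shown because both encode core subunits, with CACGTG in capitals. The VPS11 stretch is chr11:119067718-119067817 and the VPS16 stretch chr20:2840645-2840702, both on the forward strand.
VPS11: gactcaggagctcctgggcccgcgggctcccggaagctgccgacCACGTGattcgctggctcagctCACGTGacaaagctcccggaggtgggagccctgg
VPS16: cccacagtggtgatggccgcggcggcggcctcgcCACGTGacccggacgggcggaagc
VPS11 holds the letters at 2 places and was not called, and VPS16 holds them at 1 place and was lower. Of the other members with the letters, VPS8 and SNX8 were lower, VPS36 was higher, and VPS26C, VPS37B and VPS50 were not called. SNX8 was the SNX gene with the motif, and a match is a description of the letters only.

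ESCRT-I, which takes ubiquitinated cargo from the first complex at the endosome, had 5 VPS subunits, of which 2 were called lower. VPS28, which joins ESCRT-I to ESCRT-II, lies on chromosome 8 (144423601 to 144428563) and had 398, 441, 592, 341 and 174 CPM in Control 1 to 5 and 111, 279, 120.5, 126 and 159.8 in Induced 1 to 5. The 4 Control libraries other than Control 5 exceeded every Induced library, while Control 5 lay below Induced 2. Its log2 fold change was −1.29 ± 0.33 (SE, adjusted P = 0.0185, edgeR with BH), a fall of 2.44-fold.

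The VPS37 subunits of ESCRT-I are 4 alternatives for 1 position in the complex, and their values went different ways. VPS37C was lower, at −0.80 ± 0.21 (SE, adjusted P = 0.0187, edgeR with BH). VPS37B had 14.5, 12.1, 7.26, 15.3 and 28.1 CPM in Control and 32.0, 14.5, 31.7, 28.5 and 34.5 in Induced. Control 5 was close to the high Induced libraries and Induced 2 sat among the Control ones, and the log2 fold change was 0.87 ± 0.33 (SE, adjusted P = 0.0556, edgeR with BH), which did not pass. It passed in 5 of 9 other fits, among them GC offsets with a value of 1.21 and total counts with 1.08. VPS37A, at 0.73 ± 0.33, and VPS37D, at −0.58 ± 0.29 (SE), were not called.

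ESCRT-II was represented by VPS25 and VPS36, which were called in opposite directions although they are subunits of 1 complex. VPS25 had 77.2, 81.8, 66.5, 66.1 and 51.6 CPM in Control and 35.3, 59.7, 37.2, 33.2 and 34.2 in Induced. Induced 2 stood well above the other Induced libraries and above Control 5, and the log2 fold change was −0.78 ± 0.20 (SE, adjusted P = 0.0179, edgeR with BH). VPS36, the ubiquitin-binding subunit, had 9.83, 10.4, 8.65, 9.32 and 12.6 CPM in Control and 15.3, 14.8, 14.1, 19.6 and 12.9 in Induced. These groups did not overlap, though Control 5 and Induced 5 nearly met, and the log2 fold change was 0.59 ± 0.16 (SE, adjusted P = 0.0206, edgeR with BH). VPS36 is also overlapped on its own strand by THSD1 in the annotation.

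VPS4A and VPS4B are the paralogous ATPases that take ESCRT-III filaments apart. VPS4A had 156, 160.3, 121, 146 and 103 CPM in Control and 73.1, 130.1, 74.6, 84.1 and 106 in Induced. Induced 2 and Induced 5 lay within the Control range, and the log2 fold change was −0.56 ± 0.20 (SE, adjusted P = 0.0445, edgeR with BH). VPS4B had 30.6, 31.9, 24.8, 32.2 and 29.8 CPM in Control and 37.8, 35.2, 36.6, 33.9 and 29.6 in Induced, with Induced 5 inside the Control range. Its log2 fold change was 0.21 ± 0.14 (SE, adjusted P = 0.212, edgeR with BH), and it was not called.

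Retromer's cargo-binding trimer holds VPS35, VPS29 and one of the paralogues VPS26A and VPS26B, and the paralogues were called in opposite directions. VPS26A, on chromosome 10 (69123512 to 69174412), had 31.3, 25.3, 19.0, 32.9 and 48.3 CPM in Control 1 to 5 and 64.7, 44.4, 60.3, 60.6 and 58.0 in Induced 1 to 5. Control 5 exceeded Induced 2, and all other Control libraries were below all Induced ones. This gave a log2 fold change of 0.88 ± 0.23 (SE, adjusted P = 0.0186, edgeR with BH). VPS26B, on chromosome 11 (134224671 to 134247788), had 48.7, 52.6, 62.1, 47.8 and 35.7 CPM in Control and 30.8, 40.1, 32.9, 27.3 and 32.2 in Induced. The overlap was again Control 5 with Induced 2, now with Control 5 below, and the log2 fold change was −0.60 ± 0.17 (SE, adjusted P = 0.0228, edgeR with BH). With total counts alone VPS26A was at 1.09 and still called, while VPS26B was at −0.35 and was not.

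The subunits without such a paralogue were not called. VPS35, the scaffold of the trimer, had 45.6, 37.3, 44.8, 46.0 and 47.3 CPM in Control and 50.6, 53.0, 49.6, 50.9 and 45.1 in Induced. Induced 5 lay inside the Control range, and the log2 fold change was 0.17 ± 0.13 (SE, adjusted P = 0.271, edgeR with BH). VPS29, shared by retromer and retriever, had 38.2, 34.9, 24.5, 37.3 and 37.8 CPM in Control and 42.6, 37.4, 43.5, 37.8 and 42.0 in Induced. Control 3 was far below the rest and the groups overlapped, with a log2 fold change of 0.23 ± 0.15 (SE, adjusted P = 0.222, edgeR with BH).

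Retriever, which recycles integrins and other receptors with the COMMD and CCDC proteins, showed no called VPS member. VPS26C had 6.84, 5.43, 6.60, 6.13 and 7.23 CPM in Control and 10.3, 6.38, 8.99, 7.17 and 6.63 in Induced. The groups overlapped and the log2 fold change was 0.29 ± 0.18 (SE, adjusted P = 0.195, edgeR with BH). VPS35L stood at −0.01 ± 0.19 (SE).

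VPS33B and VPS45 are Sec1/Munc18 proteins, which act on SNAREs, and were called in opposite directions. VPS33B had 3.90, 5.31, 6.65, 3.91 and 4.29 CPM in Control and 3.50, 3.61, 3.10, 2.62 and 2.07 in Induced. It was the 1 member of 59 whose Induced libraries all lay below all Control libraries, a pattern shown by 4.22% of all genes tested. Here the log2 fold change was −0.69 ± 0.22 (SE, adjusted P = 0.0321, edgeR with BH). VPS45 had 3.24, 3.68, 3.60, 4.49 and 6.32 CPM in Control and 8.63, 6.81, 9.30, 6.76 and 6.28 in Induced. Control 5 reached the lowest Induced library, Induced 5, and the log2 fold change was 0.82 ± 0.22 (SE, adjusted P = 0.0187, edgeR with BH).

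GARP, which receives endosomal vesicles at the trans-Golgi, and EARP share VPS51, VPS52 and VPS53, while VPS54 belongs to GARP and VPS50 to EARP. VPS54, on chromosome 2 (63892146 to 64019428), had 3.55, 2.51, 2.94, 4.10 and 12.1 CPM in Control 1 to 5 and 26.6, 6.20, 21.6, 16.1 and 12.0 in Induced 1 to 5. Control 5 was far above the other Control libraries and level with Induced 5, and Induced 2 was the lowest Induced library. Across the groups the log2 fold change was 1.70 ± 0.48 (SE, adjusted P = 0.0220, edgeR with BH). VPS51 had 18.8, 17.4, 23.6, 15.2 and 9.70 CPM in Control and 7.44, 12.7, 8.86, 8.64 and 10.1 in Induced. Control 5 fell below Induced 2 and Induced 5, and the log2 fold change was −0.82 ± 0.23 (SE, adjusted P = 0.0219, edgeR with BH). It has 19 named pseudogenes, and tags with several matching places did not enter the counts. VPS53 was lower at −0.69 ± 0.23 (SE, adjusted P = 0.0374, edgeR with BH), and VPS50 and VPS52 stood at 0.08 ± 0.19 and 0.05 ± 0.13 (SE).

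VPS13 proteins are bridges that move lipids between membranes. VPS13D, on chromosome 1 (12230030 to 12512047), had 3.65, 3.62, 5.66, 4.59 and 7.45 CPM in Control and 12.3, 7.70, 11.2, 9.20 and 8.71 in Induced. No Induced library was below any Control library, and the log2 fold change was 0.97 ± 0.23 (SE, adjusted P = 0.0175, edgeR with BH). VPS13A and VPS13C were not called, at 0.34 ± 0.16 and −0.02 ± 0.19 (SE). VPS72, the chromatin subunit, had 49.7, 44.7, 19.1, 57.8 and 71.9 CPM in Control and 58.6, 65.0, 63.4, 56.6 and 107 in Induced. Induced 5 stood apart from the rest, and the log2 fold change was 0.53 ± 0.31 (SE, adjusted P = 0.173, edgeR with BH).

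**Figure D2:**
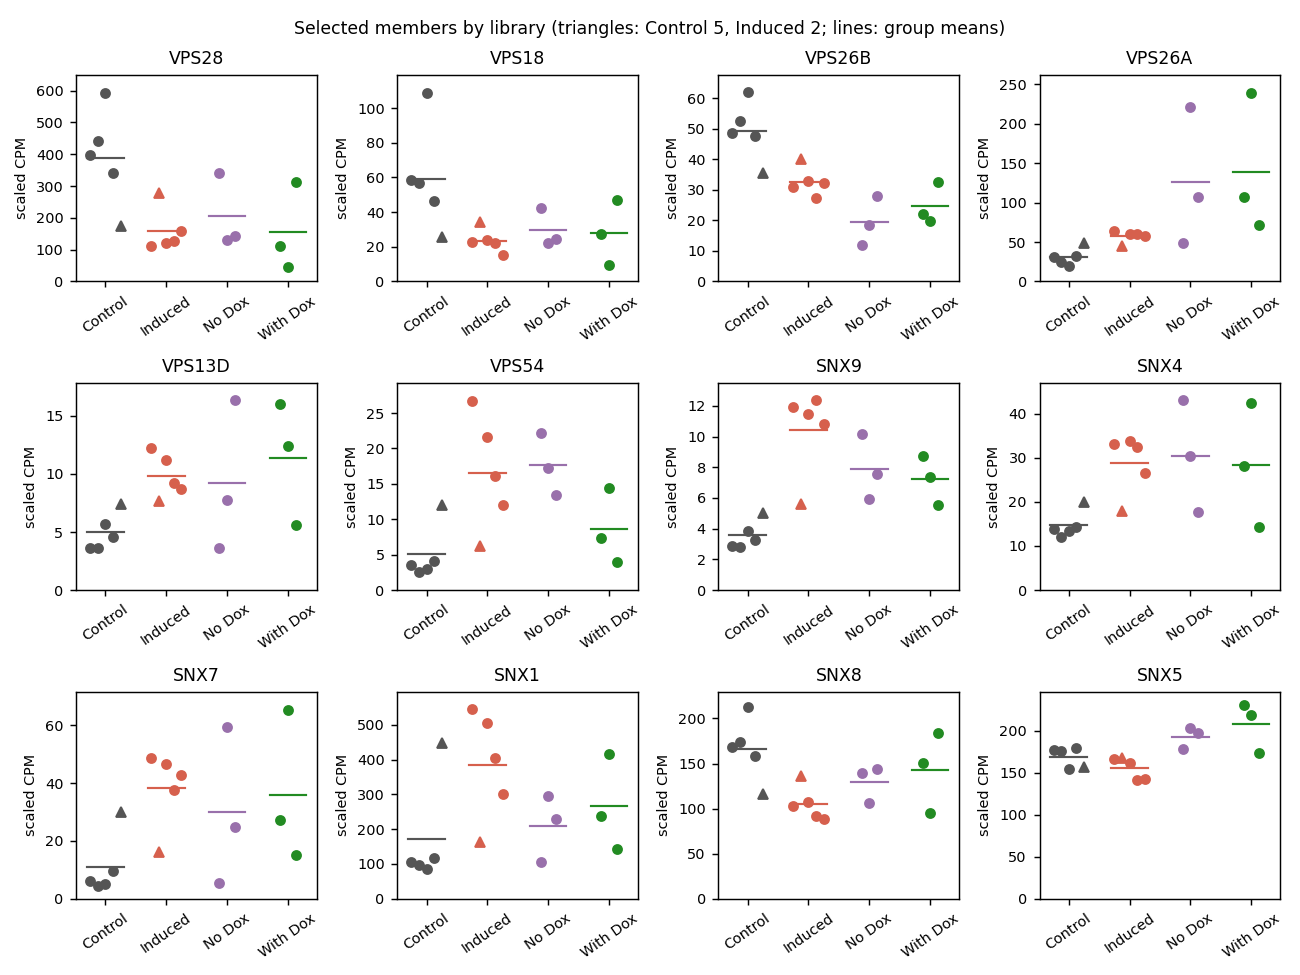
Scaled CPM (y axis, from 0) of 12 members in each library of the 4 groups, with group means as lines and triangles for Control 5 and Induced 2, and the lines of cells were scaled separately. VPS28, VPS18, VPS26B and SNX8 were lower and VPS26A, VPS13D, VPS54, SNX9, SNX4 and SNX7 higher in Induced, while SNX1 and SNX5 were not called.

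The SNX-BAR proteins of ESCPE-1, which work beside retromer, are pairs of SNX1 or SNX2 with SNX5 or SNX6, and none of the 4 genes was called. SNX1 had 105, 96.1, 86.0, 117 and 447 CPM in Control and 544, 163, 504, 404 and 302 in Induced. The Control libraries other than Control 5 were below all Induced ones, but Control 5 lay above Induced 2, Induced 4 and Induced 5. The log2 fold change was 1.17 ± 0.49 (SE, adjusted P = 0.0720, edgeR with BH). Without Control 5 and Induced 2 it was 2.11 and passed. Leaving out these libraries was a choice made after seeing the data, and it widens the difference by itself.

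SNX2 had 59.4, 52.6, 43.2, 49.3 and 48.7 CPM in Control and 68.5, 59.9, 59.3, 71.6 and 39.8 in Induced, an overlap with a log2 fold change of 0.24 ± 0.17 (SE, adjusted P = 0.269, edgeR with BH). SNX5 had 177, 176, 154, 179.5 and 157 CPM in Control and 166, 168, 162, 142 and 143 in Induced, and SNX6 had 82.6, 77.7, 112, 78.1 and 60.9 in Control and 61.0, 75.8, 58.7, 76.3 and 76.2 in Induced. The groups overlapped for both genes, with log2 fold changes of −0.11 ± 0.13 and −0.24 ± 0.18 (SE). SNX32, a relative of SNX5 and SNX6, was the member of this set with 0 counts.

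Of the other 4 SNX-BAR genes, 2 were higher and 1 was lower. SNX7, a partner of SNX4 in recycling tubules, had 6.18, 4.49, 4.99, 9.71 and 30.0 CPM in Control and 48.7, 16.2, 46.6, 37.5 and 42.9 in Induced. Control 5 was nearer to the Induced libraries than to the other Control ones, and Induced 2 was the lowest Induced library. For SNX7 the log2 fold change was 1.79 ± 0.52 (SE, adjusted P = 0.0238, edgeR with BH). SNX4 had 13.8, 12.0, 13.5, 14.3 and 19.9 CPM in Control and 33.1, 18.0, 33.8, 32.6 and 26.5 in Induced. Control 5 alone exceeded Induced 2, and the log2 fold change was 0.97 ± 0.21 (SE, adjusted P = 0.0175, edgeR with BH). SNX8 went the other way, with 169, 174, 213, 158 and 116 CPM in Control and 103, 136, 108, 91.9 and 88.4 in Induced. Control 5 fell below Induced 2, and the log2 fold change was −0.66 ± 0.18 (SE, adjusted P = 0.0214, edgeR with BH). SNX30, the other partner of SNX4, stood at 0.15 ± 0.23 (SE).

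SNX9, SNX18 and SNX33 carry an SH3 domain beside PX and BAR and act in endocytosis with dynamin and actin. SNX9, on chromosome 6 (157700387 to 157945077), had 2.89, 2.80, 3.83, 3.24 and 5.02 CPM in Control and 11.9, 5.63, 11.5, 12.4 and 10.8 in Induced. The groups did not overlap, although Induced 2 was well below the other Induced libraries, and the log2 fold change was 1.55 ± 0.25 (SE, adjusted P = 0.0175, edgeR with BH). SNX33 had 49.2, 48.7, 47.9, 37.1 and 25.5 CPM in Control and 20.1, 31.6, 19.4, 20.0 and 27.4 in Induced. Control 5 lay below Induced 2 and Induced 5, and the log2 fold change was −0.81 ± 0.22 (SE, adjusted P = 0.0198, edgeR with BH). SNX18 had 41.2, 39.0, 37.9, 43.9 and 32.2 CPM in Control and 43.2, 45.3, 38.9, 52.5 and 29.9 in Induced, which overlapped, and its log2 fold change was 0.11 ± 0.17 (SE, adjusted P = 0.599, edgeR with BH). SNX18 has 16 named pseudogenes.

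Members built mainly of the PX domain included 10 tested genes, 2 lower and 2 higher. SNX15 had 0.557, 0.817, 0.111, 1.01 and 7.23 CPM in Control and 9.52, 1.31, 9.11, 9.93 and 26.0 in Induced. Control 5 exceeded Induced 2 and Induced 5 was the highest, and the log2 fold change was 2.49 ± 0.90 (SE, adjusted P = 0.0465, edgeR with BH). With 1 library left out the value ran from 1.91, without Induced 5, to 4.12, without Control 5, and it was called in 2 of 10 such fits. Its locus is shared on the same strand with the readthrough gene ARL2-SNX15. SNX10, which acts in acidification of endosomes and in osteoclasts, had 11.4, 14.3, 17.1, 11.3 and 6.75 CPM in Control and 5.21, 10.0, 5.95, 6.67 and 6.75 in Induced. Control 5 was below Induced 2 and level with Induced 5, and the log2 fold change was −0.81 ± 0.26 (SE, adjusted P = 0.0300, edgeR with BH).

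SNX3, a retromer adaptor, and its paralogue SNX12 were both counted well. SNX12 had 87.2, 87.5, 132, 75.1 and 67.8 CPM in Control and 58.6, 61.7, 68.0, 51.3 and 66.4 in Induced. Control 5 met Induced 3, and the log2 fold change was −0.55 ± 0.19 (SE, adjusted P = 0.0362, edgeR with BH). SNX3 had 62.7, 75.6, 62.2, 62.0 and 78.2 CPM in Control and 92.6, 69.5, 92.5, 98.4 and 73.3 in Induced, which overlapped, with a log2 fold change of 0.32 ± 0.15 (SE, adjusted P = 0.0985, edgeR with BH). SNX16 was higher at 1.12 ± 0.37 (SE, adjusted P = 0.0354, edgeR with BH). SNX11, SNX21, SNX22, SNX24 and SNX29 ranged from −0.61 to 0.64 and were not called.

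SNX27, which couples cargo with a PDZ-binding end to retromer, and SNX17, which couples NPxY-type cargo to retriever, both have a FERM domain and were called in opposite directions. SNX27 had 9.27, 9.92, 10.8, 8.16 and 8.48 CPM in Control and 13.9, 10.0, 13.0, 13.9 and 18.2 in Induced. Control 3 was above Induced 2, the only such pair, and the log2 fold change was 0.57 ± 0.17 (SE, adjusted P = 0.0277, edgeR with BH). SNX17 was lower at −0.55 ± 0.20 (SE, adjusted P = 0.0464, edgeR with BH).

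PXA-RGS sorting nexins sit on the endoplasmic reticulum and lysosomes, and 2 of the 3 tested were higher. SNX13 had 5.22, 5.25, 4.60, 5.02 and 7.32 CPM in Control and 12.4, 6.71, 9.43, 9.79 and 6.75 in Induced. Control 5 was above Induced 2 and Induced 5, and the log2 fold change was 0.71 ± 0.21 (SE, adjusted P = 0.0249, edgeR with BH). SNX14 was higher at 1.08 ± 0.33 (SE, adjusted P = 0.0269, edgeR with BH), and SNX19 stood at 0.09 ± 0.14 (SE).

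Without overlap between the 5 Induced and 5 Control libraries were VPS13D, VPS36 and SNX9 on the higher side, where 3.08% of all genes tested lay, and VPS33B on the lower side. Across the 30 called members, Control 5 was the Control library nearest to the Induced group in 27, and Induced 2 the Induced library nearest to Control in 27. The same held for 89.6% and 85.3% of the 5183 genes called over the whole table. With both libraries left out, a choice made after seeing the data, 40 members were called, among them all 30, which is 67.8% of members beside 64.3% of all genes. With 1 library left out at a time the number called ran from 7, without Induced 1, to 39, without Control 5. These are 11.9% and 66.1% of members, beside 14.3% and 58.5% of all genes. Calls that held in all 10 such fits were VPS13D, VPS18, VPS25, VPS26A, VPS37C, SNX4 and SNX9. With 1 surrogate variable as a covariate 0 members were called by edgeR with BH, in a fit that called 1 of 13038 genes, and 14 members had an unadjusted P below 0.05, as did 26.9% of all genes.

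Paralogue pairs were compared as log2 ratios of their CPM, read between groups only because tags of different genes need not be counted equally well. VPS26A over VPS26B went from a mean of −0.70 ± 0.78 in Control to 0.82 ± 0.40 in Induced (SD, n = 5 each). SNX9 over SNX18 went from −3.47 ± 0.49 to −2.03 ± 0.59. SNX3 over SNX12 went from −0.37 ± 0.47 to 0.47 ± 0.34, and VPS4A over VPS4B from 2.19 ± 0.23 to 1.40 ± 0.44. SNX1 over SNX2 went from 1.43 ± 1.00 to 2.59 ± 0.68, and SNX5 over SNX6 and VPS33A over VPS33B differed by 0.11 and 0.08. In all 7 pairs the Control and Induced libraries overlapped.

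The GC content of the members' transcripts moved with their fold changes. Members called lower had a median GC content of 55.9% and those called higher 41.2%, against 46.3% for the rest. Over all genes tested these medians were 57.0%, 42.5% and 47.6%. Across the 59 members the Pearson correlation of GC content with the log2 fold change was −0.46 (Spearman −0.52), with −0.59 over 33 VPS genes, −0.28 over 26 SNX genes and −0.37 over 12922 genes. These are correlations across genes, which share the same 10 libraries. With offsets that remove each library's dependence on GC content, 13 members were called, 12 of them among the 30 and the other VPS37B. These are 22.0% of members, beside 25.5% of all genes in the same fit. VPS8, VPS13D, VPS18, VPS25, VPS28, VPS33A, VPS45, VPS54, SNX4, SNX7, SNX9 and SNX10 remained. The retromer pair was at 0.50 for VPS26A and −0.30 for VPS26B on that scale, and neither was called.

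**Figure D3:**
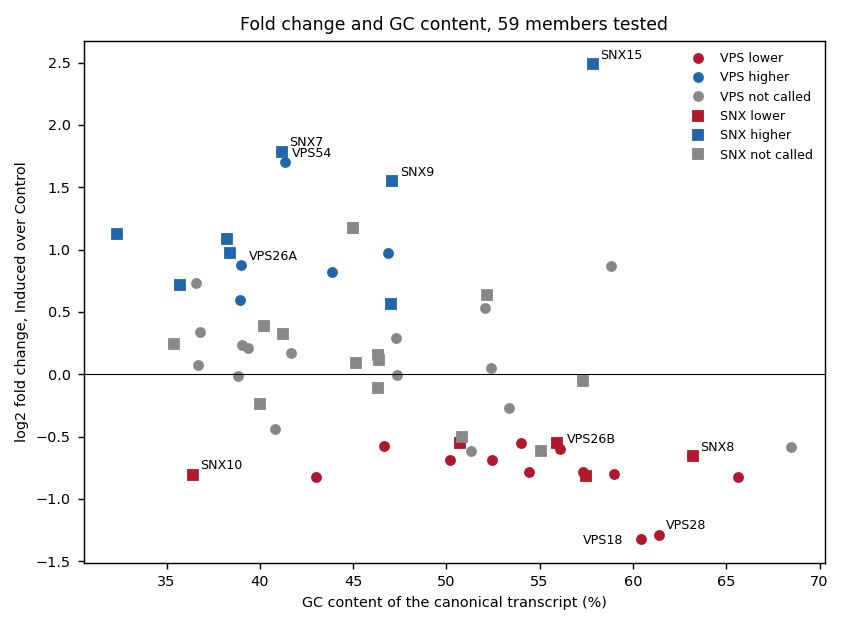
GC content of the canonical transcript (x axis, %) against the log2 fold change of Induced over Control (y axis) for the 59 members tested, with circles for VPS and squares for SNX genes, coloured by call. VPS18 and VPS28 lie at high GC content and below 0, whereas SNX10 was lower and SNX15 higher against the general slope.

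Other endosomal genes that work with the members were counted in the same fit, and of 59 listed 58 were tested. Of these, 10 were lower and 15 higher, beside the 19.8% and 20.0% of all genes, and their median log2 fold change was 0.30. ESCRT genes outside the VPS names gave 5 lower and 7 higher of 22. PDCD6IP (ALIX), which recruits ESCRT-III, was at 1.87 ± 0.59, and CHMP4B, the main filament subunit of ESCRT-III, at −0.56 ± 0.17 (SE). Retriever's partners in the commander complex gave 4 lower and 3 higher of 12, from −1.13 ± 0.24 for COMMD1 to 1.29 ± 0.33 for COMMD2 (SE). Among 7 cargo receptors none was lower and 3 were higher, and IGF2R, a retromer and ESCPE-1 cargo, was at 2.44 ± 0.54 (SE). The early endosome tether EEA1 was higher without overlap, at 0.87 ± 0.19 (SE).

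In the parental line doxycycline was given without the transgene, to see what the drug alone did. Counts sufficed for 50 members, 29 VPS and 21 SNX. By edgeR with BH adjustment 0 were called, 0 had an unadjusted P below 0.05, and DESeq2 called 0. Over all 9124 genes tested edgeR called 0 and DESeq2 1, and 2.93% had an unadjusted P below 0.05. The median log2 fold change was −0.06 for VPS, −0.08 for SNX and −0.01 for all genes. In counts simulated from these 6 libraries the test recovered 0 of 200 genes changed 2-fold and 51 of 200 changed 4-fold. A change in as many genes as in the transgene line was not simulated. The 0 calls here do not show that the members were unchanged.

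SNX27 had the lowest P of the members, with 35.4, 17.2 and 12.3 CPM in No Dox 1 to 3 and 10.1, 11.3 and 7.15 in With Dox 1 to 3. Every With Dox library was below every No Dox library, and the log2 fold change was −1.15 ± 0.53 (SE, unadjusted P = 0.0540, adjusted P = 0.997, edgeR with BH). VPS54 had 22.2, 17.2 and 13.4 CPM in No Dox and 7.31, 14.4 and 3.97 in With Dox. With Dox 2 overlapped the No Dox range, and the log2 fold change was −0.99 ± 0.55 (SE, unadjusted P = 0.0988). VPS37B had 33.6, 21.4 and 23.4 CPM in No Dox and 20.2, 12.8 and 11.1 in With Dox, without overlap, at −0.81 ± 0.46 (SE, unadjusted P = 0.107). These 3 genes were below 0 here and above 0 in the transgene line.

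Without overlap in the parental line were VPS37B, SNX2 and SNX27 on the lower side and VPS4B on the higher side. Over all genes tested the shares were 4.66% and 4.87%. VPS26A had 49.2, 222 and 108 CPM in No Dox and 108, 239 and 71.5 in With Dox, and VPS28 had 342, 131 and 142 in No Dox and 111, 46.6 and 313 in With Dox. Both spread several-fold within each group, and in the With Dox group they ranked the libraries in opposite order.

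**Figure D4:**
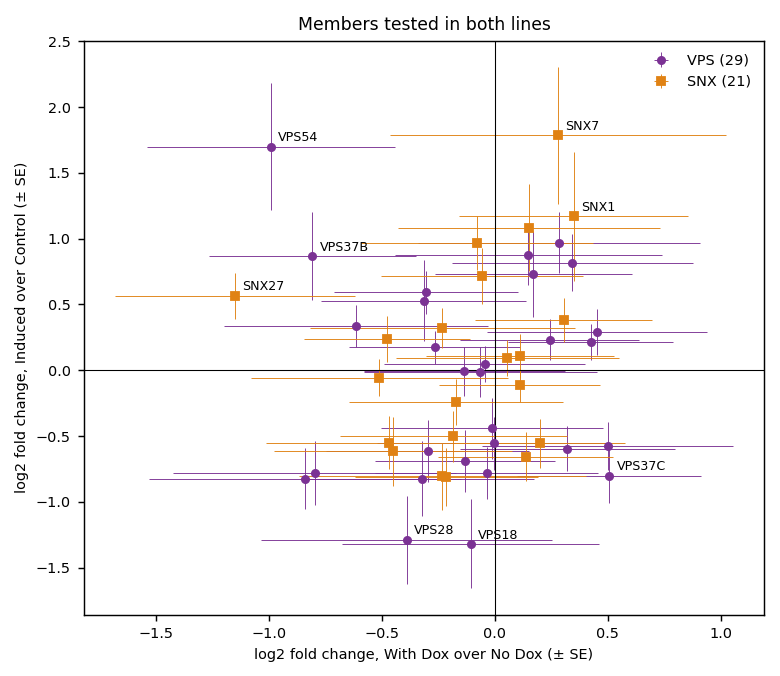
Log2 fold change of With Dox over No Dox (x axis) against that of Induced over Control (y axis), each with its SE, for the 29 VPS and 21 SNX genes tested in both. VPS54, VPS37B and SNX27 lie at the upper left, and SEs are wider along the parental axis.

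Whether a member responded differently in the transgene and the parental line was tested as an interaction over all 16 libraries. In counts simulated from these libraries the test recovered 0 of 200 genes changed 2-fold in Induced and 84 of 200 changed 4-fold. A change in more than 200 genes, which can alter the share recovered, was not simulated. None of 59 members tested was called by edgeR with BH adjustment, where 2.98% of 12265 genes were, and 11 had an unadjusted P below 0.05, where 26.1% of genes did. VPS37C came nearest, with a difference of −1.55 ± 0.42 on the log2 scale (SE, adjusted P = 0.0512, edgeR with BH). VPS54 differed by 2.48 ± 0.74, SNX27 by 1.48 ± 0.45 and SNX9 by 1.43 ± 0.44 (SE), with adjusted P of 0.0654, 0.0668 and 0.0681 (edgeR with BH). Without Control 5 there were 8 calls among the members, and without Control 5 and Induced 2 together, a choice made after seeing the data, there were 14. These are 13.6% and 23.7% of the members, beside 18.9% and 25.3% of all genes in the same fits.

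The members called in the transgene line were then followed library by library, as the mean log2(CPM + 1) of the 10 called higher minus that of the 16 called lower, over those tested in both lines. In the transgene line the groups differ by the choice of these genes. Control ran from −3.34 to −1.32, with Control 5 the highest, and Induced from −1.84 for Induced 2 to −0.48. The parental libraries entered the choice only through the filter on low counts, which left out VPS33B, SNX9, SNX15 and SNX16. Their values were −1.38, −0.58 and −0.89 in No Dox 1 to 3 and −0.82, 0.16 and −2.15 in With Dox 1 to 3. The means were −2.61 ± 0.78 in Control and −0.91 ± 0.54 in Induced (SD, n = 5 each). Parental libraries are several times shallower and were sequenced at another facility, so levels of the index cannot be compared between the lines. No test was made on these values. The mean GC content of the transcripts counted, weighted by tags, was lowest in With Dox 2, at 48.1%, and highest of the parental libraries in With Dox 3, at 50.6%. In the transgene line it was 49.4% to 50.6% in Control, with Control 5 the lowest, and 48.5% to 49.5% in Induced, where Induced 2 and Induced 5 were the highest. The part of library GC content in these differences was not tested.

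**Figure D5:**
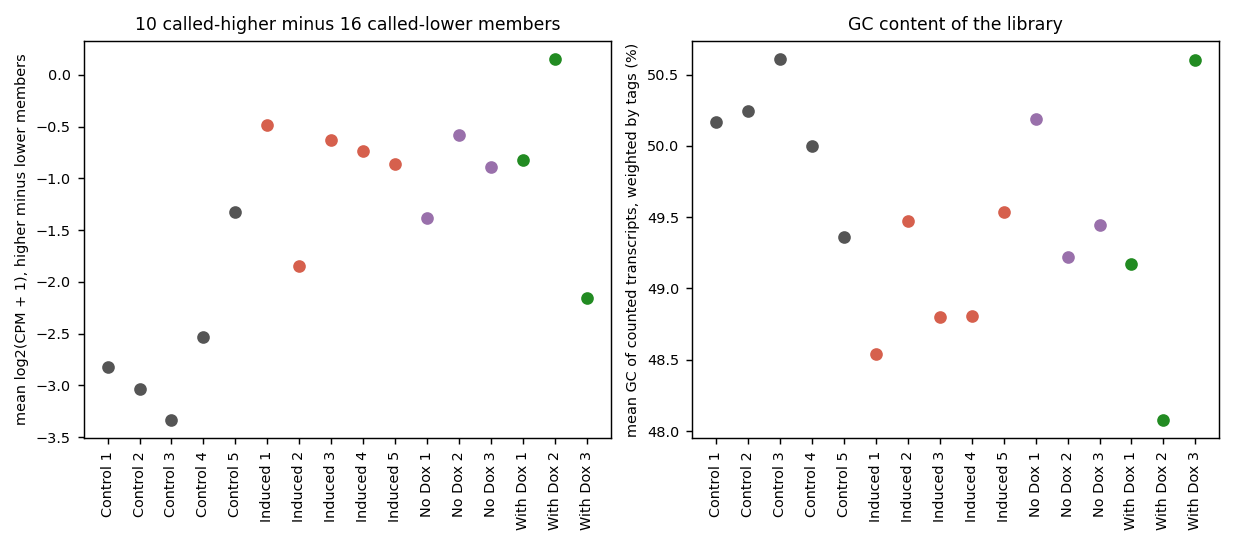
Left, mean log2(CPM + 1) of 10 members called higher minus 16 called lower in each of the 16 libraries and, right, mean GC content of counted transcripts weighted by tags (%). Control 5 and Induced 2 sit between their groups on the left, and With Dox 2 and With Dox 3 are the extremes of the parental line in both panels. The lines of cells were sequenced at different facilities, so levels cannot be compared between them.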

How the data were processed

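Libraries of 3′ end tags were made from cytoplasmic RNA with the QuantSeq REV kit. The authors deposited raw tag counts of each Ensembl gene in 1 table per library, which a Lexogen pipeline had produced on GRCh38. The aligner, the annotation release, the use of strand and the handling of duplicates are not given in the sources used here. Tags that aligned to several places were left out of these counts, and 0.561 to 1.44 such tags were recorded for each count on a gene. The paper gives doxycycline for induced cells only, while the protocol recorded with the samples lists it for all, and the sample labels were followed.

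Symbols, positions and GC content came from GENCODE release 44, which matched 56104 of 60107 genes. Members and gene lists were chosen with earlier results of these data known. The whole table was fitted in R 4.3.3 with edgeR 4.0.16 for genes whose base mean exceeded 20, with TMM scaling and the quasi-likelihood test, and P values were adjusted by Benjamini-Hochberg and called below 0.05. The fits set 5 Control against 5 Induced and 3 No Dox against 3 With Dox libraries, and tested an interaction over all 16. The SE was taken from the log2 fold change and its F statistic. Values printed per library are TMM-scaled CPM.

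Alternatives were DESeq2 1.42.0, its size factors, total counts alone, no filter or filterByExpr, a block for replicate number, 1 surrogate variable (sva 3.50.0), GC offsets (lowess span 0.5) alone or with the block, each library left out, and Control 5 and Induced 2 left out together, which was added after seeing the data. On counts simulated from the transgene libraries with 200 changed genes, edgeR recovered 42 at a 2-fold change and, in a separate run, 189 at a 4-fold change. A change in more than 200 genes was not simulated. No pair of libraries within a group was a duplicate, as the closest, Induced 1 and Induced 3, differed by a chi-square of 4.55 per degree of freedom. Pairs across groups were not checked. Values in every library are given for members without overlap, the 3 largest changes by family and direction, retromer, paralogue pairs, the member with the lowest P in each role group, and the 3 lowest P in the parental line. Protein sequences were not used here.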

Additional observations from a re-analysis of the deposited data

Results flagged for a closer look

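Among 118 groups of 5 libraries, 1 per tested member and condition, 18 held a library that stood apart from the other 4 by Dixon's criterion, which chance alone meets in about 1 of 20 groups. Control 5 was that library for 8 members, with 68.2 CPM of VPS33A, 12.1 of VPS54, 447 of SNX1, 19.9 of SNX4, 30.0 of SNX7, 7.32 of SNX13, 30.0 of SNX14 and 7.23 of SNX15, and in each it lay on the side of the Induced group. Induced 2 was that library for 5 members, with 19.7 CPM of VPS16, 59.7 of VPS25, 19.7 of VPS41, 5.63 of SNX9 and 1.03 of SNX16, and in each it lay on the side of the Control group.

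Induced 5 stood apart with 3.97 CPM of VPS13C and 107 of VPS72. Control 3 did so with 24.5 CPM of VPS29 and 5.66 of VPS35L, and Control 2 with 37.3 of VPS35.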

How the results depend on the processing

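Of the 30 members called between Induced and Control, 30 were also called by DESeq2, which called 35 members and 45.7% of all genes. With the replicate number as a block 26 of the 30 were called, in a fit that called 29 members and 39.8% of all genes. The replicate numbers are not known to pair the libraries, since deviations of same-numbered libraries correlated at 0.03 on average, and under the block no member was called in the parental line or between the lines. GC offsets left 13 calls, or 15 with the replicate block, and 1 surrogate variable left 0, where 25.5%, 30.2% and 0.00767% of all genes were called, against 39.8% with none of these. Leaving out 1 library gave 7 to 39 calls between Induced and Control (14.3% to 58.5% of all genes), 0 in the parental line and 0 to 8 between the lines (0 to 18.9% of all genes). Between the lines, total counts gave 2 calls, DESeq2 4, and Control 5 and Induced 2 left out together 14. Of all genes these fits called 3.64%, 12.1% and 25.3%. The 25 calls among other endosomal genes, of 58 tested, became 14 with GC offsets and 0 with 1 surrogate variable. They became 42 without Control 5 and Induced 2, and 10 to 39 with 1 library left out. In the same order these fits called 25.5%, 0.00767%, 64.3% and 14.3% to 58.5% of all genes.

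The median of VPS members in Induced against Control was 0.22 with total counts, −0.17 with GC offsets and −0.17 with GC offsets and the block, and −0.14 to 0.042 with 1 library left out. For SNX these medians were 0.44, 0.0069 and 0.015, with 0.27 without a filter and 0.14 to 0.29 with 1 library left out. In the parental line the VPS median was −0.23 with total counts, −0.20 with GC offsets and the block, and −0.18 to 0.14 with 1 library left out, and the SNX median was −0.13 to 0.10 with 1 library left out.

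No member called between Induced and Control changed direction in these fits. Of the 59 members tested, 11 turned with GC offsets, 10 with GC offsets and the block, 5 with total counts, 6 with 1 surrogate variable and up to 3 with 1 library left out, and none of these was called in either fit. With GC offsets, VPS4B was at −0.17, VPS13A at −0.13, VPS29 at −0.15, VPS35 at −0.12, VPS37D at 0.069, VPS50 at −0.42, SNX2 at −0.28, SNX3 at −0.00058, SNX18 at −0.014, SNX19 at −0.085 and SNX21 at 0.27, and with GC offsets and the block VPS4B was at −0.17, VPS29 at −0.14, VPS35 at −0.13, SNX2 at −0.30 and SNX18 at −0.025, with the rest close to these values. With total counts VPS13C and VPS35L were at 0.22, SNX5 at 0.12, SNX6 at 0.011 and SNX21 at 0.18, and with 1 surrogate variable SNX6 was at 0.11 and VPS13C, VPS37D, VPS41, VPS50 and SNX21 ran from −0.044 to 0.026. The cause was not tested.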

Other observations

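The study from which the data come inhibited the methylation of caps in the cytoplasm. It reported mRNAs that begin with a run of pyrimidines as the largest class it found to be capped again there. The study classed such mRNAs by recovery with the protein LARP1, whereas here only letters at the annotated start were read. Of 47 members with a RefSeq promoter, 3 had a C followed by 4 pyrimidines at the annotated start (VPS51, SNX3 and SNX5), against 6.24% of 15843 protein-coding genes. VPS51 was lower, at −0.82, and SNX3 and SNX5 were not called, at 0.32 and −0.11 on the log2 scale.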
